A study of Homo sapiens with 6 samples.

Results

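Integrins and laminins were examined in Hep3B cells, a human hepatocellular carcinoma line, as the protein-coding genes whose symbols begin with ITGA, ITGB, LAMA, LAMB or LAMC, leaving out binding proteins and genes named as like an integrin chain. This gave 37 of the 27009 genes with a value, 26 integrin chains and 11 laminin chains. RNA sequencing had been done on 6 libraries, 3 per group. In all 6 the cells were PD-L1 knockout, and they had received by lentivirus either the empty vector (pCDH-CMV-Puro) or nPD-L1, a PD-L1 whose LCL motif was changed to ACA and which is compartmentalized in the nucleus, followed by puromycin selection. A CMV promoter drove the construct, and whether each line was 1 clone or a pool was not given in the sources used here. The comparison asked how gene expression differed with nPD-L1 in cells without endogenous PD-L1.

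Integrins are the main receptors by which cells hold on to the extracellular matrix. Each is a pair of an alpha and a beta chain, and the pair sets the ligand: some bind collagens, some bind laminins, and others bind the RGD motif of fibronectin and vitronectin. Laminins are trimers of an alpha, a beta and a gamma chain that build the basement membrane, the sheet on which epithelial cells and many carcinomas rest.

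Each value is a scaled read, that is, the reads on a gene divided by a size factor of the library, and the scaled reads summed to 18082164 to 19682128 per library. The targeted gene, CD274, which encodes PD-L1, went against the labels. With vector its scaled reads were 28.3, 38.4 and 47.8, and those that should carry the construct had only 16.8, 19.2 and 30.9, although the groups overlapped and the adjusted p was 0.338 (limma, Benjamini-Hochberg). The latter are therefore called the libraries labelled nPD-L1. The hepatocyte list held 11 genes with a value (AFP had none here), nearly all of its sum from the keratins KRT8 and KRT18. Sums over the list were 52821 to 64803 in vector and 46994 to 60221 in the libraries labelled nPD-L1. Its defining liver genes ALB, APOA1, APOB, TTR and TF did not exceed 2.89 scaled reads in any library, HNF4A was higher (log2 fold change 1.91) and FOXA2 lower (-1.40). Of the other marker lists, 6 leukocyte genes summed to 124 to 171 and 150 to 168, 4 endothelial genes to 10.1 to 10.4 and 7.72 to 15.2, and 6 fibroblast genes to 235 to 306 and 666 to 710, vector first. Only COL1A1 was called in the fibroblast list, where LUM had 99.9 to 182 scaled reads, ACTA2 51.1 to 84.8 and DCN at most 5.04, and the part of any marker in the results was not tested. Vector replicates 2 and 3 lay farthest apart among libraries of a group, with 1281 genes more than 2-fold apart. The labels do not say whether replicates are separate cultures, so the p values measure only the spread between these libraries.

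Of the 37 genes, 29 reached 10 scaled reads in at least 3 libraries and were tested, 20 integrins and 9 laminins. 1 of these 29 genes was higher in the libraries labelled nPD-L1 (3.45%) where 4.04% of all 15076 genes tested were higher, and 0 were lower where 0.922% of all were lower. None reached 2-fold with an adjusted p under 0.05, a criterion met by 2.48% of all genes tested. The gene called was ITGB4, which encodes the beta chain of the laminin receptor of hemidesmosomes. At an unadjusted p under 0.05 the limma test gave 3 integrins higher and 1 lower, or 13.8% of the 29 genes against 14.2% of all genes tested. By comparison, edgeR was run on the 4 libraries with recovered reads, vector replicates 2 and 3 and replicates 1 and 3 labelled nPD-L1. It gave 0 calls after adjustment and the same counts of 3 and 1 unadjusted. DESeq2 on those libraries called 1 gene higher and 0 lower, with 3 and 1 unadjusted. Over all 15076 genes tested, edgeR called 235 (1.56%) higher and 48 lower, and DESeq2 333 (2.21%) and 85. Unadjusted shares over all genes are not given for these fits. Fold changes are differences of log2(value + 1), so they come out too small for weakly expressed genes. Their median over the 29 genes was 0.07 (19 positive, 10 negative) against -0.02 over all genes tested. The 29 genes were longer, at a median of 6865 bases against 4654, and the part of gene length in this difference was not tested.

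**Figure D1:**
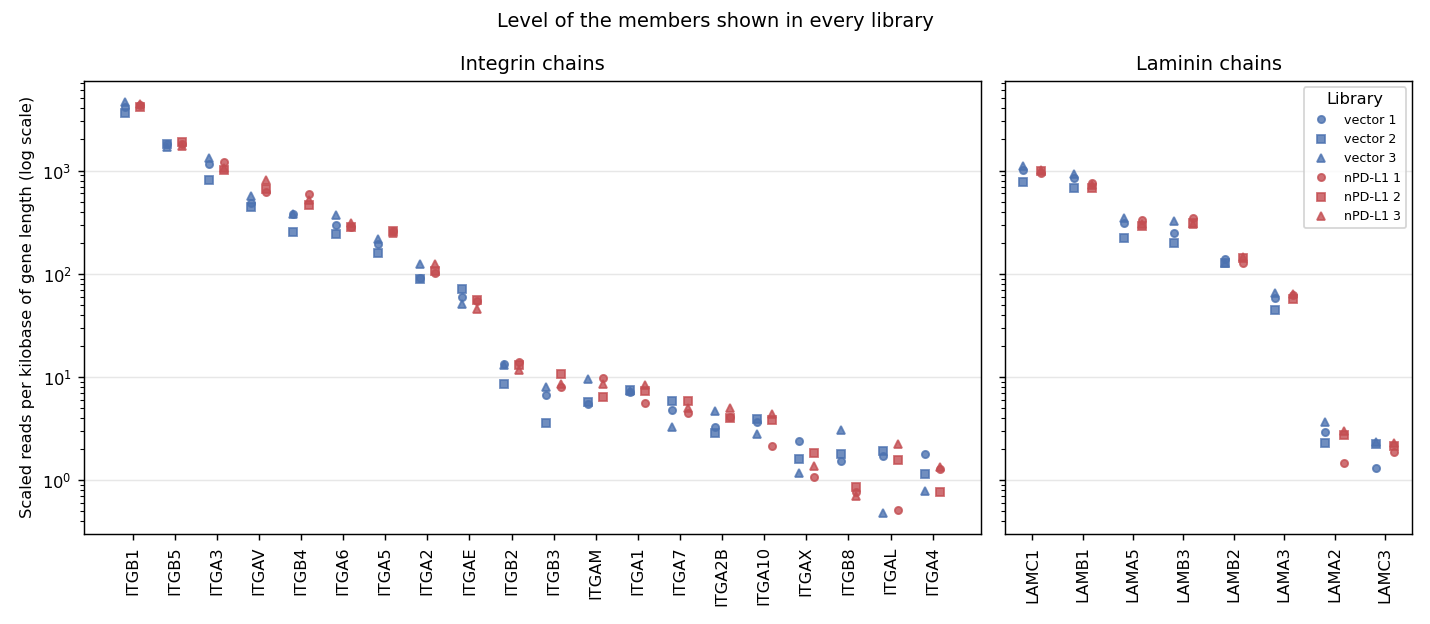
Level of 28 tested genes in each of the 6 libraries, in scaled reads per kilobase of gene length on a log axis, with integrin chains on the left and laminin chains on the right. Each point is 1 library. ITGB1 stands highest, at 3572 to 4650 per kilobase, and from ITGB2 downward the integrins lie near or under 10.

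Per kilobase of gene length, ITGB1 was the most abundant of the 37 genes. It encodes the beta1 chain, the common partner of many alpha chains, and alone made up 48.2% of the summed integrin level in vector and 46.6% in the libraries labelled nPD-L1. ITGB5, a partner of the alphaV chain, followed at a mean of 1775 and 1821 per kilobase, then ITGA3, a laminin-binding alpha chain, at 1097 and 1103. Below these came ITGAV at 501 and 698, ITGB4 at 337 and 527, ITGA6 at 302 and 293, and ITGA5 at 189 and 257. Each of these integrins stood above the next in 6 of 6 libraries. Among the laminins described here the order was LAMC1 (967 and 979), LAMB1 (818 and 725), LAMA5 (293 and 307) and LAMB3 (257 and 320). LAMC1 stood above LAMB1, and LAMB1 above LAMA5, in 6 of 6 libraries, while LAMA5 stood above LAMB3 in 4 of 6, and their ranges overlapped. Summed alpha chains reached 2282 ± 420 and 2546 ± 118 per kilobase (SD, n = 3), summed beta chains 6245 ± 562 and 6660 ± 119, and neither sum differed beyond its spread (exact permutation test, two-sided, p = 0.5 and 0.3, where 0.1 is the smallest p that 3 against 3 can give).

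ITGB4 (ENSG00000132470) lies on the + strand at chr17:75721328-75757818 of GRCh38, and its exons share no base with another gene of GENCODE 29. With vector it had 2559.7, 1713 and 2569 scaled reads, against 4042, 3136 and 3520.1 with the nPD-L1 label. All 3 of the latter stood above all 3 of the former, with the lowest value in vector replicate 2. The log2 fold change was 0.66 ± 0.16 (SE), a fold of 1.58, with an adjusted p of 0.0423 (limma, Benjamini-Hochberg). In bulk samples a larger share of cells that express a gene and more RNA per cell cannot be told apart. The call was lost without vector replicate 1 (log2 fold change 0.76, adjusted p 0.0723) and without replicate 1 (0.57, 0.207), 2 (0.75, 0.0577) or 3 (0.67, 0.168) of the libraries labelled nPD-L1. It held without vector replicate 2 (0.47, 0.00828) and without vector replicate 3 (0.76, 0.0168).

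The beta4 chain pairs only with the alpha6 chain, encoded by ITGA6. Scaled reads of ITGA6 were 1926, 1573 and 2420.4 in vector, against 1872, 1845 and 2024 with the nPD-L1 label. These groups overlapped, and the log2 fold change was -0.02 with a 95% confidence interval from -0.34 to 0.30. ITGA3, whose chain binds the same laminins together with beta1, had 11454, 7909 and 12906 scaled reads against 11977, 9979 and 10471. The vector values of ITGA3 enclosed all those of the other group (log2 fold change 0.03, interval -0.34 to 0.41). ITGA7, a laminin receptor chain best known in muscle, was low at a mean of 29.4 and 32.6 scaled reads.

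**Figure D2:**
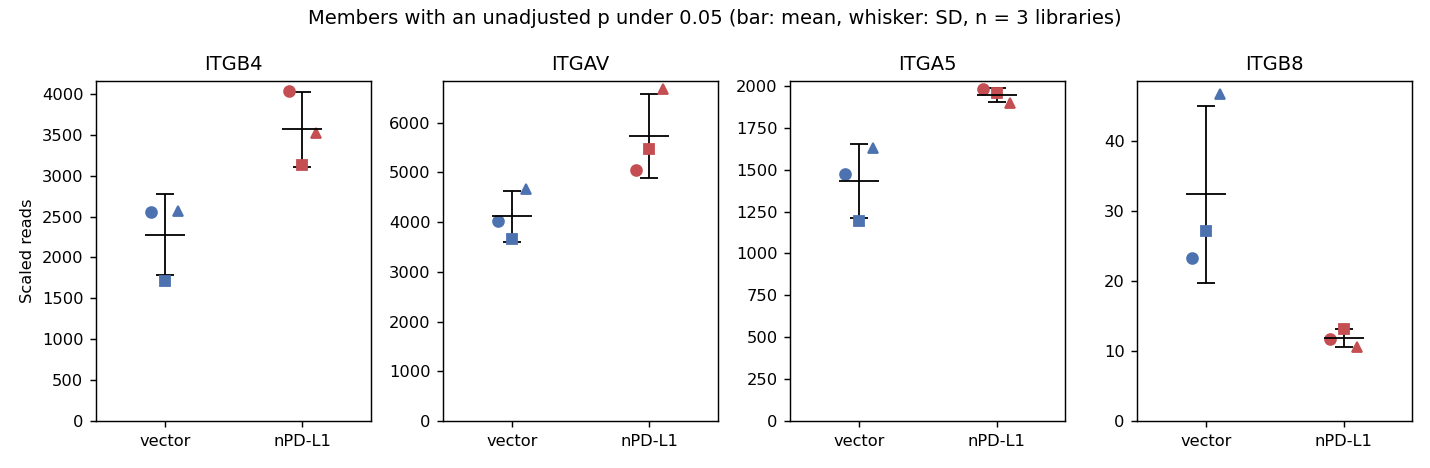
Scaled reads of ITGB4, ITGAV, ITGA5 and ITGB8 in each library, on linear axes from 0, with the mean and SD of 3 libraries. In each panel the groups do not overlap, with ITGB8 the only one of the 4 that is lower in the libraries labelled nPD-L1, and only ITGB4 passed the adjusted test.

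The RGD-binding alpha chains recognize fibronectin, vitronectin and fibrinogen. ITGAV (chr2:186590065-186680901, + strand), whose alphaV chain pairs with several beta chains, had 4019, 3664 and 4670.4 scaled reads in vector, against 5052, 5465 and 6685 with the nPD-L1 label. ITGA5 (chr12:54395261-54419460, - strand), the alpha chain of the fibronectin receptor, had 1475, 1195 and 1632 against 1982, 1957 and 1897. Neither gene's groups overlapped. Together with ITGB4, this made 3 of 29 genes with all libraries labelled nPD-L1 above all vector libraries, where 12.0% of all genes tested did so. Neither passed the adjusted test: the log2 fold change was 0.47 ± 0.13 (SE) for ITGAV with an adjusted p of 0.0759, and 0.45 ± 0.12 for ITGA5 with 0.0650 (limma, Benjamini-Hochberg). Without vector replicate 3 both fell under 0.05 (0.0268 and 0.0174), and without vector replicate 2 ITGA5 did (0.0382) but ITGAV did not (0.0536). Without vector replicate 1 the adjusted p was 0.278 for ITGAV and 0.185 for ITGA5. Leaving out replicate 1, 2 or 3 labelled nPD-L1 gave 0.102, 0.188 and 0.329 for ITGAV, and 0.215, 0.226 and 0.199 for ITGA5. On 4 libraries, edgeR gave 0.576 and 0.559, and DESeq2 0.520 and 0.670, ITGAV first. ITGA2B, the platelet fibrinogen receptor chain, had low means of 20.0 and 24.3 scaled reads.

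Summed per kilobase, the RGD-binding alpha chains stood at 687, 607 and 789 in vector, against 881, 928 and 1070 with the nPD-L1 label. The exact permutation p was 0.1, the smallest that the design allows. This sum is nearly all ITGAV and ITGA5, whose groups did not overlap, so its p was fixed by theirs and adds no evidence. Their share of the integrin sum was 8.13% and 10.4%. ITGB8 (chr7:20330702-20415754, + strand), a partner of alphaV that binds latent TGF-beta, ran the other way at a low level. It had 23.2, 27.1 and 46.8 scaled reads with vector, against 11.8, 13.1 and 10.6. It was the 1 gene of 29 whose groups did not overlap in the lower direction, where 8.54% of all genes tested did so, and its log2 fold change of -1.32 ± 0.37 (SE) had an adjusted p of 0.0814 (limma, Benjamini-Hochberg). Per-library values of ITGA5 and ITGB8 are given because their values were seen to separate the groups, and those of ITGA6 because it is the partner of ITGB4. ITGB5 had 11719.5, 11627 and 10976.5 scaled reads against 11763, 12189.6 and 11261.5, a log2 fold change of 0.04 with an interval from -0.18 to 0.25. ITGB3, which forms the vitronectin receptor with alphaV, had means of 26.8 and 40.2 and is uncertain, since 51.6% of its exonic bases are shared on the same strand with AC068234.1.

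ITGB1 had 24749, 21472 and 27948 scaled reads in vector, against 25997, 24969 and 26375 with the nPD-L1 label. The first group enclosed the second (log2 fold change 0.07, interval -0.20 to 0.33). Its collagen-binding partners ITGA2, ITGA1 and ITGA10 had means of 801 and 878, of 136 and 132, and of 21.9 and 21.9 scaled reads, vector first, and none was called. ITGA4, an alpha chain of lymphocyte homing receptors, had means of 9.80 and 8.92.

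The leukocyte integrin chains were mostly low. ITGAE, which binds E-cadherin, was the exception at 60.5 and 51.8 per kilobase, a mean of 403 and 345 scaled reads (log2 fold change -0.22, interval -0.55 to 0.12). HASPIN on the opposite strand shares 6.41% of the exonic bases of ITGAE, and the counter's use of strand is not given in the sources used here. ITGAM, ITGAX and ITGAL, which pair with the beta2 chain, had means of 39.4 and 47.0, of 12.3 and 10.1, and of 8.88 and 9.32, and ITGB2 itself 79.3 and 87.4, or 11.7 and 12.9 per kilobase. Of the leukocyte markers, PTPRC lay between 0 and 2.52 scaled reads, while LCP1 had 68.6 to 98.9 and CORO1A 52.0 to 68.1.

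**Figure D3:**
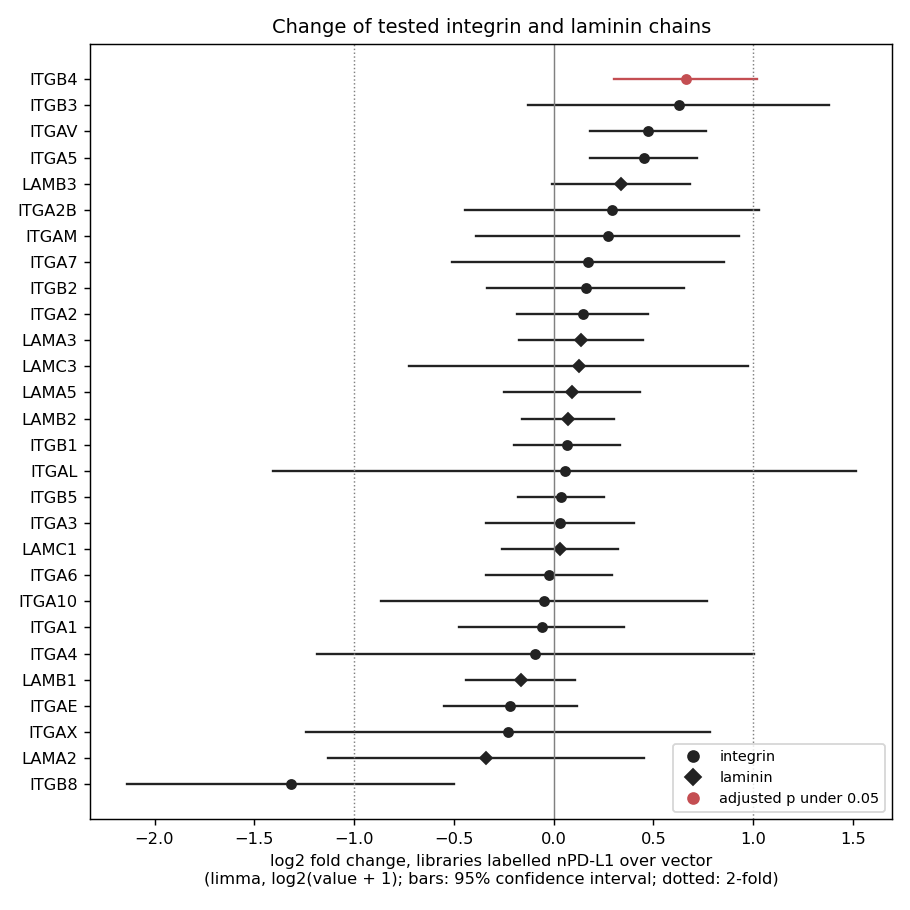
log2 fold change of 28 tested integrins (circles) and laminins (diamonds), libraries labelled nPD-L1 over vector, with 95% confidence intervals from limma. The dotted lines mark 2-fold. ITGB4 is the 1 gene with an adjusted p under 0.05, and ITGB8 lies farthest from 0.

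None of the 9 laminin chains tested changed at an adjusted p under 0.05, where 4.04% of all genes tested were higher and 0.922% lower. None had an unadjusted p under 0.05 by limma, where 14.2% of all did, nor by edgeR or DESeq2 on 4 libraries. With only 9 genes, counts of 0 cannot be told apart from these shares. LAMC1, the gamma1 chain of most laminins, had 8581, 6577 and 9231 scaled reads in vector, against 7962, 8266 and 8454 with the nPD-L1 label. LAMB1, its usual beta partner, had 6903, 5559.9 and 7501 against 6225, 5545 and 5923. LAMA5, the alpha chain of laminin-511, had 4465, 3141 and 4949 against 4714, 4137 and 4316. In each of these genes the groups overlapped, and vector replicate 2 was the lowest of its group. The chains of laminin-511 summed to 65.1% and 64.0% of the laminin level per kilobase.

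LAMA3 and LAMB3 encode an alpha and a beta chain of epithelial laminins that bind the alpha6beta4 and alpha3beta1 integrins. LAMB3 had 1173, 936 and 1505 scaled reads with vector, against 1631, 1450.4 and 1412. These groups overlapped. The largest log2 fold change among the laminins on the higher side was that of LAMB3, 0.34 ± 0.16 (SE). Its adjusted p was 0.367 (limma, Benjamini-Hochberg), which became 0.0405 without vector replicate 3 and lay at 0.513 to 0.600 without each other library. LAMA3 had means of 824 and 898. Of the rest, LAMB2, the beta2 chain, had means of 903 and 949.6 scaled reads, LAMA2, the alpha chain of muscle laminin, 30.8 and 24.8, and LAMC3, the gamma3 chain, 14.9 and 15.9.

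Each tested gene that was not called came with an interval that bounds its change. In all 16 of these with a vector mean of at least 100 scaled reads the 95% interval lay within 2-fold in both directions, and in 12 within 1.5-fold. Of the 12 under 100, 5 had an interval within 2-fold, and for the others a change beyond 2-fold was not excluded. The 8 genes not tested were ITGA8, ITGA9, ITGA11, ITGAD, ITGB6, ITGB7, LAMA1 and LAMB4. ITGB6, the epithelial partner of alphaV, ranged from 2.08 to 8.40 scaled reads, ITGB7 from 2.08 to 8.68 and ITGAD from 0 to 8.07, and the others did not exceed 5.79. LAMA1 stood at 1.01, 1.13 and 1.04, or about 1 read, with vector and at 0 otherwise, which gives no usable fold.

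**Figure D4:**
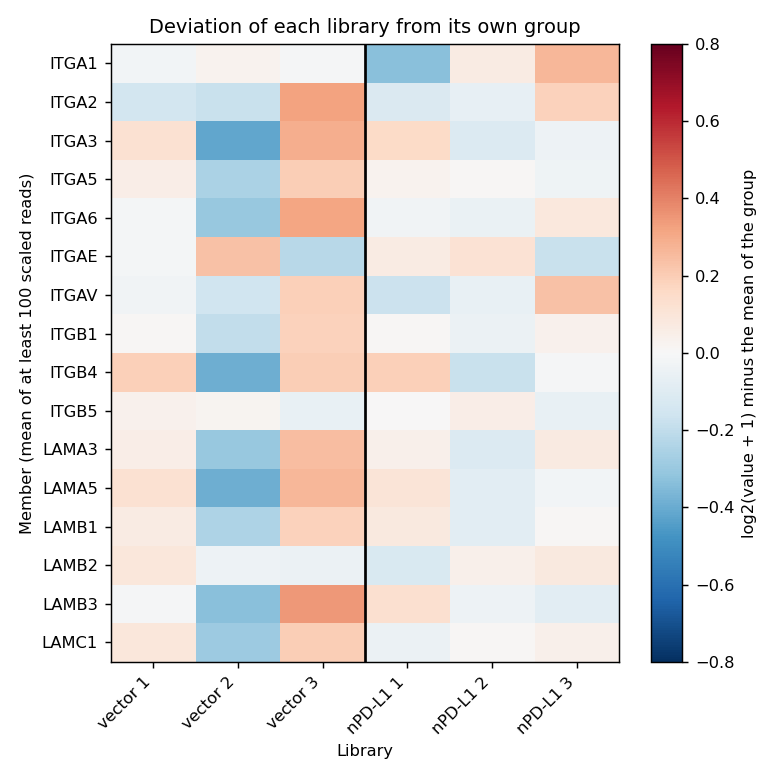
Deviation of each library from the mean of its own group, as log2(value + 1), for 16 tested genes averaging 100 scaled reads or more (blue lower, red higher). Vector replicate 2 is the lowest of its group in 12 of the 16 genes and vector replicate 3 the highest in 12.

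The vector libraries varied together across these genes. Vector replicate 2 was the lowest of its group in 17 of the 29 tested genes, with a median log2 difference of -0.32 from the other vector libraries. Over all genes tested it was lowest in 6240 of 15076, with a median difference of -0.0004. Vector replicate 3 was the highest in 19 of the 29, with a median difference of 0.30. Among all genes tested it was highest in 5518 of 15076, with a median difference of 0.006. Over all genes, the deviation of a library from its group went with gene length in both groups, as a description (15076 genes that share the library). Spearman rho was 0.14, -0.32 and 0.29 in vector replicates 1, 2 and 3, and -0.06, -0.17 and 0.20 with the nPD-L1 label. Among the 29 genes rho was -0.05 and 0.002 in vector replicates 2 and 3, and -0.08 and 0.13 in those labelled nPD-L1. The median length of the 29 genes was 6865 bases against 4654. In a choice added after seeing the data, a length trend was removed from every library. It was fitted on deviations from the mean of all 6 libraries, so a length trend between the groups was removed too. ITGB4 then kept its call (log2 fold change 0.58, adjusted p 0.0347) and ITGB8 was called lower (-1.47, 0.0407; limma, Benjamini-Hochberg). The log2 fold changes of ITGAV and ITGA5 became 0.37 and 0.36.

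Promoter windows, 250 bases before to 50 after the start (RefSeq, GRCh38.p14), were matched for 25 of the 37 genes. Both strands were searched for the AP-1 site with letters TGANTCA. The other motifs searched were the box of letters GGGCGG, known as the GC box, the letters TATAAA of the TATA box, and the SMAD palindrome GTCTAGAC. No match of one overlapped a match of another in the windows shown. The AP-1 letters stood in 2 of 25 windows (8%) against 7.71% of all 35116, and the GC box in 14 (56%) against 45%. TATAAA stood in 1 (4%), that of ITGA6, against 11.5%, and the palindrome in 0 against 0.202%. Windows of ITGA5 and ITGAV, the RGD-binding chains whose groups did not overlap, are shown with that of LAMA3, which along with ITGA5 holds AP-1 letters. They are written 5′ to 3′ on the gene's strand, with capitals for the AP-1 and GC box letters. ITGA5 lies at chr12:54419217-54419516 (- strand), ITGAV at chr2:186589806-186590105 (+ strand) and LAMA3 at chr18:23872770-23873069 (+ strand), the last inside the gene's span in the files, which starts at 23689443.
ITGA5: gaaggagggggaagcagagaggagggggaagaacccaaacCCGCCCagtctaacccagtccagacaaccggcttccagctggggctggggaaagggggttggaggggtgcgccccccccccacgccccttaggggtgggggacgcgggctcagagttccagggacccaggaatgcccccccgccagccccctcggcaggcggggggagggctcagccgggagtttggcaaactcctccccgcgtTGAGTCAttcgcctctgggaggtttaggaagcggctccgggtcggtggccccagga
ITGAV: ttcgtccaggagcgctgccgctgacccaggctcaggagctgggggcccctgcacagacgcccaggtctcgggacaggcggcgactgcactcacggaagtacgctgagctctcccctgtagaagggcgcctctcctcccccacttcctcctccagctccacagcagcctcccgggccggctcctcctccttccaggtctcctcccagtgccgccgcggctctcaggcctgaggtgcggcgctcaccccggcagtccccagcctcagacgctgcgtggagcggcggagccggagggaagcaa
LAMA3: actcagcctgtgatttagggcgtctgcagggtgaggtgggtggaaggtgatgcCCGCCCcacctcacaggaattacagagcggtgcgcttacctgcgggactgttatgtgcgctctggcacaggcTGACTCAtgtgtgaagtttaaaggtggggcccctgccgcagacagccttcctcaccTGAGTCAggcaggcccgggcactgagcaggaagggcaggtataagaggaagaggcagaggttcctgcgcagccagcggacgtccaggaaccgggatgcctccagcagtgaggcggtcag
In ITGA5 the AP-1 letters begin 6 bases before the start, at -6, and in LAMA3 at -125 and -69, while the window of ITGAV holds none of the 4 motifs. The log2 fold changes of ITGA5 and LAMA3 were 0.45 and 0.14, and their difference was not tested. A match is a description of letters and not a bound site.

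**Figure D5:**
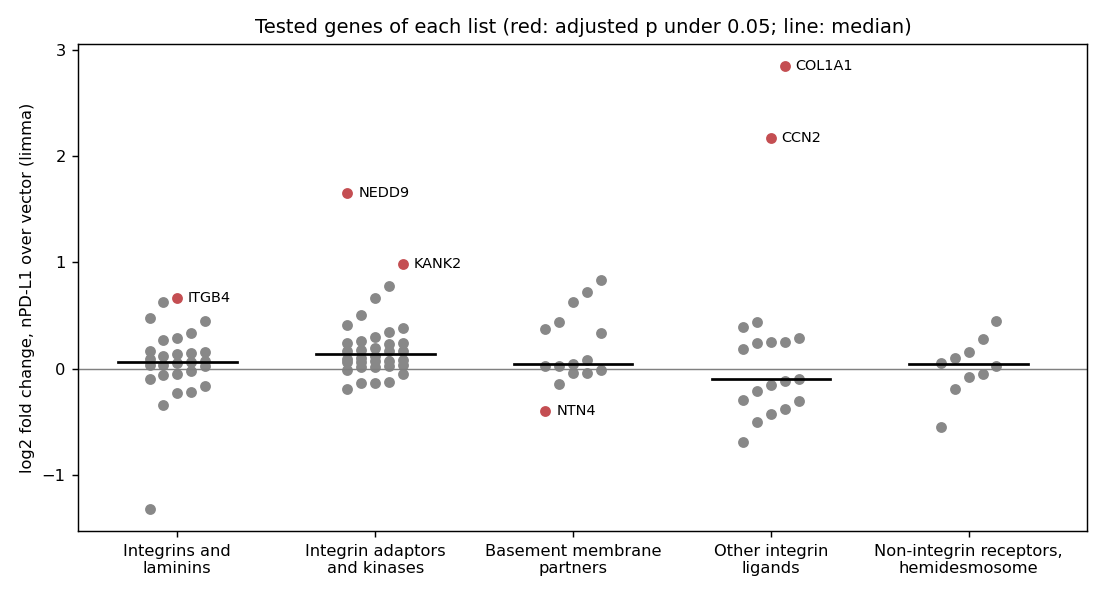
log2 fold change of the tested genes in 5 lists: the integrins (28 shown) and laminins, integrin adaptors and kinases, basement membrane partners, other integrin ligands, and non-integrin laminin receptors with hemidesmosome proteins. Points are genes, the line is the median of the genes shown, and the 6 red points passed an adjusted p of 0.05, with COL1A1 highest and NTN4 the 1 on the lower side.

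The proteins that act with integrins were read from lists. Of 36 tested adaptors and kinases, which link the integrin tail to actin and to signaling, 2 were higher (5.56%, against 4.04% of all genes tested) and 0 lower, with a median log2 fold change of 0.14. 9 (25%) had an unadjusted p under 0.05, against 14.2% of all genes tested. NEDD9, a scaffold protein phosphorylated downstream of focal adhesion kinase, had 1511, 1495 and 1176 scaled reads in vector, against 4230.4, 4393 and 4489.5 with the nPD-L1 label. Its log2 fold change was 1.66 ± 0.11 (SE), with an adjusted p of 9.9e-06 (limma, Benjamini-Hochberg). KANK2, which binds talin at adhesions, had 798, 641 and 659 against 1293, 1424 and 1420.0 (log2 fold change 0.98 ± 0.11, adjusted p 4.7e-04). Both genes stood far above the vector range in every library of the other group. Without vector replicate 2, and again without vector replicate 3, 5 of the 36 were called. Over all 15076 genes tested these fits called 793 higher and 244 lower, and 682 higher and 139 lower.

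Among 19 tested integrin ligands other than laminins, 2 were higher (10.5%, against 4.04% of all) and 0 lower, with a median of -0.09. At an unadjusted p under 0.05 there were 8 (42.1%, against 14.2% of all). COL1A1, the alpha1 chain of type I collagen, had 82.8, 63.2 and 49.9 scaled reads in vector, against 465, 445 and 487 with the nPD-L1 label. Its log2 fold change was 2.84 ± 0.19 (SE), with an adjusted p of 8.0e-06 (limma, Benjamini-Hochberg). CCN2, a secreted matricellular protein that the files list as CTGF, had 1269.8, 1412 and 513 against 4304, 4302 and 4519 (2.17 ± 0.34, adjusted p 0.00884). The 2 genes were higher in each library of the second group than in any vector library. Without vector replicate 3, 4 of the 19 were called, where 682 of all 15076 genes tested were higher and 139 lower.

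Of 15 tested basement membrane partners, 0 were higher and 1, NTN4, was lower (6.67%, against 0.922% of all genes tested), with a median of 0.04. NTN4, a netrin that binds the laminin gamma1 chain, had 2898, 2789.6 and 3144 scaled reads in vector, against 2116, 2291 and 2310.4 with the nPD-L1 label (log2 fold change -0.39 ± 0.10, adjusted p 0.0416 by limma). No gene of that list was called by edgeR or DESeq2, nor without vector replicate 1 or 3 or any single library labelled nPD-L1. None of the 10 non-integrin laminin receptors and hemidesmosome proteins was called by limma, edgeR or DESeq2, and none had an unadjusted p under 0.05 by any of them. Over all genes tested limma called 4.04% higher and 0.922% lower, and 14.2% had an unadjusted p under 0.05, from which 0 of 10 cannot be told apart. 1 was called by limma without vector replicate 3, where 682 of all 15076 genes tested were higher and 139 lower. PLEC, plectin, which anchors the beta4 chain to keratin filaments, had 17289, 10816 and 21928 scaled reads in vector and 22881, 21352 and 21442.5 in the other group (log2 fold change 0.45, adjusted p 0.371 by limma), and its value was seen before it was chosen to be named.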

How the data were processed

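RNA sequencing of 6 Hep3B libraries (3 vector, 3 labelled nPD-L1, grouped by their titles) was done by a company, and the submitters' processing notes name CASAVA, HISAT2 2.0.5 and hg38. The counter and its use of strand are not given in the sources used here. The deposited values per gene and library are a signal, reads divided by the library's size factor, although the authors' table presents them as raw. In 100% of values they are whole multiples (within 0.1) of a step. Whole reads were accepted as recovered in 4 libraries (17427519 to 22253295 reads on genes). Vector replicate 1 and replicate 2 labelled nPD-L1 met the same check of whole multiples, and the ground for leaving them out is not given here. Intervals from limma hold counting error and the spread of libraries together. The authors' group means, fold changes and p-values were not used. Gene lengths per kilobase come from the same deposited table (another column, in bases).

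The 15076 genes that reached 10 in 3 or more libraries were fitted by limma 3.58.1 (R 4.3.3) on log2(value + 1), with trend and robust moderation, two-sided. p values were adjusted by Benjamini-Hochberg over all of them and called under 0.05, with no fold threshold. Exact permutation tests served for sums. edgeR 4.0.16 and DESeq2 1.42.0 were run as alternatives on the 4 libraries, and the fit was tested on simulated data. Other alternatives were scalings, pseudocounts, filters, a block for the replicate number, leaving out each library and, added later, a length trend removed and limma on 4 libraries. The members and lists were chosen with earlier results of these data known. The rule named every called gene, gave every library for the 5 most abundant per kilobase in each family, means for the other tested genes and a range for the rest, with ITGA5, ITGB8, ITGA6 and PLEC given by library outside it. Of the 37 genes, 37 had the same start and end in GENCODE 29, and 21 share exonic bases with another gene. The values of 1 tested gene are not reported here, in the text or the figures, though counts include it. Of the listed genes, 14, LAMA4 and AFP among them, had no value here and were not analysed.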

Additional observations from a re-analysis of the deposited data

How the results depend on the processing

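The count of integrin and laminin genes called higher, 1 in the report, was 0 with upper-quartile factors (ITGB4 adjusted p 0.0533), 3 with no filter on low values, 3 with the replicate block, 0 with edgeR and 0 with limma on the same 4 libraries, and 0 to 4 when 1 library was left out. Over all genes, upper-quartile factors gave 556 higher of 15046 tested (3.70%), and no filter 694 of 27009 (2.57%). Limma on the 4 libraries gave 254 higher of 15076 (1.68%) and 53 lower. The counts called lower and at 2-fold, 0 each, became 1 and 1 with the gene length trend removed. That fit called 574 higher and 182 lower of all 15076 genes, and its share at 2-fold is not given here. The adaptors and kinases called, 2, became 6 with the replicate block and 2 to 5 with 1 library left out. Of the basement membrane partners, 1 was called, and 0 by edgeR, 0 by DESeq2, 0 by limma on the 4 libraries and 0 to 1 with 1 library left out. The integrin ligands called, 2, became 1 with limma on the 4 libraries and 2 to 4 with 1 library left out, and the non-integrin receptors, 0, ranged from 0 to 1. The cause of these shifts was not tested. Fits on 4 libraries or without a library have fewer samples, and the part of this was not tested either.

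Whether the replicate numbers pair the samples was not settled. Same-numbered libraries had correlations of deviations of -0.01, 0.23 and 0.13. Replicates 2 and 3 correlated best with their own number, and replicate 1 did not. Under the block ITGB4 (adjusted p 3.7e-04), ITGAV (0.00429) and ITGA5 (0.0127) were called, and over all genes 927 were higher and 258 lower against 609 and 139 (limma, Benjamini-Hochberg). Counts over all genes were 235 and 48 by edgeR and 333 and 85 by DESeq2, and 350 to 793 higher with 1 library left out.

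ITGB4 stayed positive under all 18 alternatives (log2 fold change 0.47 to 0.85, adjusted p 3.7e-04 to 0.207) and was called in 11. Of 518 values of single genes 37, in 17 genes, had the other sign, none of them called in the main or the alternative fit, and no called value reversed. Factors from upper quartiles and TMM moved the median of all genes from -0.02 to -0.04 and -0.01. Of the 12 uncalled genes under 100 scaled reads in vector, 5 had an interval within 2-fold, and the part of depth in this was not tested.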
